A study of Mus musculus with 6 samples.

Results

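The expression of 43 genes of cholesterol and fatty acid metabolism was examined in peritoneal macrophages (PEMs) of mice with and without Tim-4, the phosphatidylserine receptor encoded by Timd4. The genes were chosen by function, from a list of enzymes, regulators, transporters and receptors, and each was found by its symbol in the deposited gene table, where all 43 had a row among 15415. They comprised 16 sterol synthesis genes, 5 genes of the SREBP system, 10 fatty acid synthesis genes, 5 LXR and efflux genes, 5 cholesterol handling genes and 2 genes of lipid uptake. The expression unit was fragments counted per kilobase of gene, scaled to the depth of the library (FPKM). It was inferred from the values, since the table did not name it. FPKM takes account of gene length and depth but not of differences in composition between libraries. A fit with rescaled libraries is therefore given as well.

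The question of the series was what loss of Tim-4 does to gene expression in PEMs. There were 6 RNA-seq libraries, 3 titled CKO and 3 titled Control. The CKO group was LysM-Cre; Tim-4 fl/fl, in which Cre is expressed from the lysozyme locus of myeloid cells and removes a floxed stretch of the Tim-4 gene. The Control group was Tim-4 fl/fl, with the same floxed allele and no Cre, so any effect of Cre itself cannot be told apart from that of the deletion. Per the methods, the mice were on a C57BL/6J background, male and 6–8 weeks old, and PEMs were collected 3 days after 1 ml of 6% starch had been injected into the peritoneum. The labels gave all 6 libraries LPS as the treatment, and the methods described 1 µg/ml for 3.5 h without saying whether the sequenced cells received it. The study speaks of biological replicates for its plots with error bars, but the sources used here did not say whether each sequenced library came from a separate animal, so the p-values measure only the spread between these libraries.

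SREBPs (sterol regulatory element-binding proteins) are transcription factors made as membrane proteins of the endoplasmic reticulum. When sterol is scarce, their escort Scap carries them to the Golgi, where they are cut, and the released part switches on genes of cholesterol and fatty acid synthesis. When sterol is plentiful, Insig proteins hold Scap back, and oxysterols activate the liver X receptors (LXRs), nuclear receptors that switch on cholesterol export. Macrophages take up much lipid from engulfed cells and lipoproteins, and both systems are known to respond when LPS activates these cells.

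The promoters of the genes were read to see which letters they shared beyond their function. RefSeq windows on GRCm38.p6, from 250 bases before to 50 bases after a gene start, were found for 33 of the 43 genes, and none was listed for Npc1, Scd2, Lpl, Stard4, Scd1, Fdft1, Sqle, Fads1, Abcg1 and Fdps. The sterol regulatory element was searched as TCACNCCAC and the NF-Y box as CCAAT, both on either strand. Only exact matches were counted, so looser forms would be missed. The 9 letters of the former occurred in 1 of the 33 genes, Hmgcs1, beside 1.44% of the 27025 genes with a window. CCAAT occurred in all 13 sterol synthesis genes with a window, in 4 of 5 genes of the SREBP system, 4 of 7 fatty acid synthesis genes and 1 of 4 LXR and efflux genes, beside 41.1% of all genes with a window. The spaced repeat bound by LXR was searched only as an exact AGGTCA repeated after a gap of 4 bases. It was in no window of the 33 genes and in 0.0148% of all genes. Letters this rare could not separate groups, and looser forms of the repeat were not searched. The 250 bases before the start are printed for Hmgcs1, the gene with the exact sterol element letters. They are also printed for Acss2, Npc2 and Mylip, which passed the test described below and had a CCAAT box. Capitals mark matches to either motif, so that ATTGG is CCAAT on the other strand, and all are written 5′ to 3′ on the strand of the gene. They lie at chr13:119690101-119690350 (+), chr2:155517793-155518042 (+), chr12:84773113-84773362 (-) and chr13:45389492-45389741 (+), in that order.
Hmgcs1: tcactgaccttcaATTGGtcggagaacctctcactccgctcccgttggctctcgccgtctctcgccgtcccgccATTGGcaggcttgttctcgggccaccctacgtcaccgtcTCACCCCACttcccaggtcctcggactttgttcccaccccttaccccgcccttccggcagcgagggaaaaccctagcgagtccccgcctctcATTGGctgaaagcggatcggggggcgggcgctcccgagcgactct
Acss2: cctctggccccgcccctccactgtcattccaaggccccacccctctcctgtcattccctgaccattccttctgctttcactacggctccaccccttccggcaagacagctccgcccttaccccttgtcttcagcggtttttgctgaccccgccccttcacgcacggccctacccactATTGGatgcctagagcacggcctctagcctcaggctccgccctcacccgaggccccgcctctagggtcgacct
Npc2: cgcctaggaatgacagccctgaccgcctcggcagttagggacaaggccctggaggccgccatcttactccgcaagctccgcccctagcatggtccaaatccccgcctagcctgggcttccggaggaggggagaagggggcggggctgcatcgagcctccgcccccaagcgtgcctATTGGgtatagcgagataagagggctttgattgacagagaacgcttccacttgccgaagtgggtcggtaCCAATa
Mylip: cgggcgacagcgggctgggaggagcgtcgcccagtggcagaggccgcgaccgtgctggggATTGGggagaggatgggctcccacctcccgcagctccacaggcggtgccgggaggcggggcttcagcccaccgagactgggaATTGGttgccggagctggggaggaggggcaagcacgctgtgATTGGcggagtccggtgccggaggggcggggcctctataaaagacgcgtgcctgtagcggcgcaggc

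The libraries held 36170767 to 42217558 fragments on the listed genes, and each library correlated best with another of its own group (across all tested genes, r of 0.986–0.992 within CKO 0.948–0.983 within Control and 0.936–0.967 across groups). Control 3 stood apart from the other controls, with r of 0.948 to Control 1, 0.9675 to Control 2 and 0.9666 to CKO 3. Lyz2, the locus that carries Cre, was at 41.4, 4656 and 106.0 FPKM in CKO 1, 2 and 3 and at 7090–8482 FPKM in Control, so CKO 2 stood far from CKO 1 and CKO 3 there. Timd4 itself was at 0.333, 0.394 and 0.246 FPKM in CKO 1, 2 and 3 and at 19.5, 12.0 and 1.19 FPKM in Control 1, 2 and 3. Its direction went with the titles and against a genotype label that named the groups the other way round. The groups did not overlap, but Timd4 missed the threshold (log2 fold change −2.66 ± 0.74 SE, adjusted p = 0.0715), with Control 3 far below the other controls. It passed with the replicate block (adjusted p = 0.0436), with a pseudocount of 0.1 (0.0458) and without Control 3 (−3.63, adjusted p = 0.000405). It did not pass with voom (0.142), no filter (0.123), a filter of 5 FPKM (0.0791) or scaling by the median of ratios (0.0889), nor in the other 5 omissions (0.0939 to 0.235).

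Markers of other peritoneal cells differed between the groups as well, where 4.74% of all tested genes were called lower and 2.57% higher in CKO. The 6 macrophage markers, among them Adgre1 and Csf1r, were present in every library, summing to 2563–2840 FPKM in CKO and 2188–2659 FPKM in Control, and none of the 6 passed the test. The largest share of that sum was Cd68, at 1571.8–1685.3 FPKM in CKO and 815.5–1378.8 FPKM in Control (adjusted p = 0.0989). Csf1r (83.3–143.4 against 151.5–179.6 FPKM, adjusted p = 0.0903) and Cd14 (262.1–405.9 against 484.3–630.6 FPKM, adjusted p = 0.0631) were lower in every CKO library, so the sum joined markers that differed in opposite directions. The 6 B cell markers summed to 11.0–11.9 FPKM in CKO and 32.9–124.9 FPKM in Control, with 5 of 6 lower. The 6 markers of resident large peritoneal macrophages summed to 9.75–22.5 against 89.4–242.1 FPKM, with 3 of 5 tested lower, and the 5 mast cell markers to 1.28–1.49 against 25.1–28.8 FPKM, with 4 of 4 tested lower and Fcer1a at 0 in 2 CKO libraries. The 4 neutrophil markers in the table summed to 42.0–73.8 against 161.0–175.3 FPKM, with 2 of 4 tested lower. The 7 mesothelial and fibroblast markers summed to 11.9–33.3 FPKM in CKO and 2.09–12.3 FPKM in Control, and none of 4 tested passed. The 5 markers of small peritoneal macrophages and monocytes (35.4–80.3 against 37.8–44.0 FPKM, 1 of 3 tested lower) and the 5 of T cells (0.919–1.41 against 1.09–3.08 FPKM, the 1 tested not passing) overlapped in their sums, and of 5 adipocyte markers the 1 with a row, Lipe, was at 4.22–4.53 FPKM in CKO and 2.91–3.82 FPKM in Control without passing. Of the markers called lower, all 4 of mast cells, 4 of the 5 of B cells, Icam2 of large peritoneal macrophages and Camp of neutrophils reached the filter of 1 FPKM, described below, only through the Control mean, so these counts are a description. In bulk RNA of this kind, fewer cells of a type and less RNA per cell cannot be told apart.

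**Figure D1:**
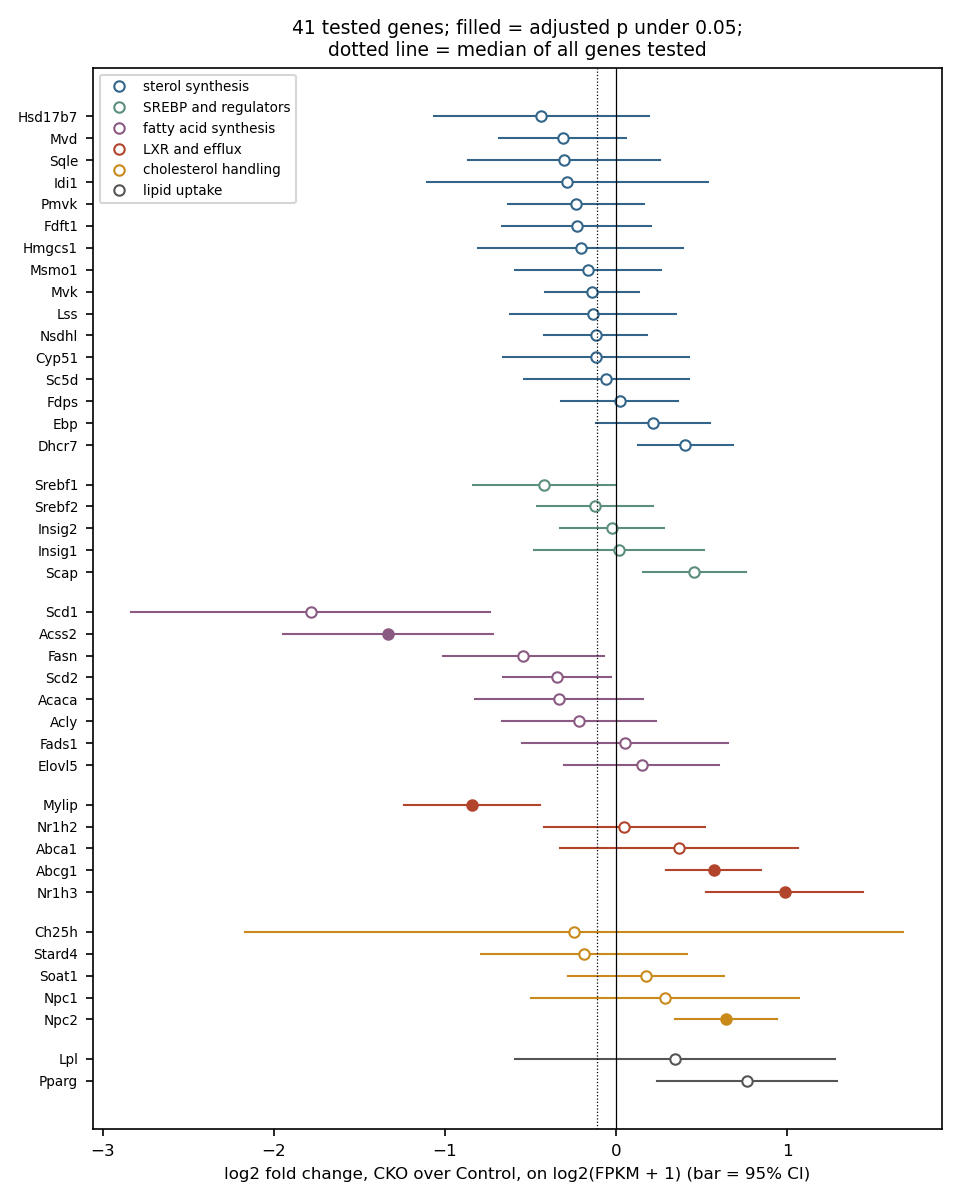
Log2 fold change of CKO over Control on the log2(FPKM + 1) scale for the 41 tested genes, grouped by role. Each point is 1 gene, bars are 95% confidence intervals, and filled points passed an adjusted p of 0.05: Nr1h3, Abcg1 and Npc2 to the right of 0, Acss2 and Mylip to the left, with the 16 sterol synthesis genes between −0.44 and 0.40.

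Cholesterol export and synthesis genes did not move as a block. The LXR gene Nr1h3, the efflux transporter Abcg1 and the lysosomal cholesterol carrier Npc2 were higher in the CKO libraries. The acetyl-CoA synthetase Acss2 and the LXR target Mylip were lower. No gene of the cholesterol synthesis pathway passed the test in either direction. A gene was tested if its mean was at least 1 FPKM in one group, which kept 41 of the 43, leaving out Elovl6 and Fads2. Mylip and Scd1 entered only through the Control mean and Dhcr7 and Pparg only through the CKO mean, so for these 4 the filter itself favoured a difference. Of the 41 tested, 3 (7.32%) were higher and 2 (4.88%) lower in CKO at an adjusted p of 0.05 in limma. Over the 9030 genes tested, 2.57% were higher and 4.74% lower. The share that fell was near the background, and the share that rose rests on 3 genes. The ranges of the groups did not overlap for 6 genes that were higher and 6 that were lower in CKO, where 11.1% and 23.0% of all tested genes had such higher and lower ranges. The median log2 fold change was −0.12 over the 41 genes and −0.11 over all genes tested. Scaling the libraries by the median of ratios moved the median of all genes by 0.127 to 0.02 and that of the 41 genes to −0.002, and the share of higher calls over all genes went from 35.2% to 51.5%.

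Of the 5 LXR and efflux genes, 2 rose and 1 fell. Nr1h3 encodes LXRα, the LXR form typical of macrophages and liver. It was at 10.4, 13.3 and 10.8 FPKM in CKO 1, 2 and 3 and at 4.07, 5.07 and 7.05 FPKM in Control 1, 2 and 3. All CKO libraries were above all controls, and the mean was 2.13-fold higher (log2 fold change 0.98 ± 0.20 SE, adjusted p = 0.032). Nr1h2, which encodes the widely expressed LXRβ, was at 23.5, 20.7 and 23.9 FPKM in CKO and at 21.2, 16.9 and 29.2 FPKM in Control. The Nr1h2 ranges overlapped (0.05, 95% confidence interval −0.42 to 0.52), and Nr1h2 stood above Nr1h3 in every library.

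The export transporters differed from each other in how even they were. Abcg1, which passes cholesterol to high-density lipoprotein, was at 2.92, 2.77 and 2.51 FPKM in CKO and at 1.50, 1.65 and 1.38 FPKM in Control. Its groups lay apart with small spread in both, and it rose 1.81-fold (log2 fold change 0.57 ± 0.12 SE, adjusted p = 0.0345). Abca1, which loads cholesterol onto lipid-poor apolipoprotein, was at 12.6, 13.2 and 27.9 FPKM in CKO and at 10.8, 13.1 and 14.5 FPKM in Control. Abca1 was high in CKO 3 alone, while CKO 1 and CKO 2 lay within the controls (0.37 ± 0.30 SE, adjusted p = 0.451). Without CKO 3 its log2 fold change was 0.02. The summed mesothelial and fibroblast markers were at 11.9, 33.3 and 14.8 FPKM in CKO 1, 2 and 3, highest in CKO 2 and not in CKO 3, and their part in the higher values was not tested.

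Mylip went the other way. It encodes a ubiquitin ligase that marks lipoprotein receptors for breakdown, and it is itself switched on by LXR. Mylip was at 1.02, 0.661 and 1.28 FPKM in CKO and at 2.18, 2.37 and 3.14 FPKM in Control, from 105 to 427 fragments a library. Every CKO library was below every control, and the mean was 2.59-fold lower (log2 fold change −0.84 ± 0.17 SE, adjusted p = 0.0325). B cell, mast cell and large peritoneal macrophage markers were lower in the same libraries, and their part in the lower Mylip values was not tested. Mylip was highest in Control 3, where the summed mast cell markers were also highest and the summed B cell and large peritoneal macrophage markers were the lowest of the controls.

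Each of these calls was lost in some omissions of 1 library and kept in others. For Nr1h3 the adjusted p was 0.104 without CKO 1, 0.15 without CKO 2, 0.133 without Control 2 and 0.0629 without CKO 3, and it was 0.0454 without Control 1 and 0.00625 without Control 3, with log2 fold changes of 0.83 to 1.16 over all 6 omissions. For Abcg1 it was 0.148, 0.17, 0.11 and 0.061 under the same omissions and 0.0518 without Control 1, and it stayed under the threshold without Control 3 (0.0344), with log2 fold changes of 0.53 to 0.61. For Mylip it was 0.115, 0.146 and 0.123 without CKO 1, CKO 2 and Control 2 and 0.0399, 0.0383 and 0.0296 without CKO 3, Control 1 and Control 3, with log2 fold changes of −0.95 to −0.72. With no filter on low values the adjusted p was 0.0598 for Nr1h3, 0.0677 for Abcg1 and 0.0609 for Mylip.

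**Figure D2:**
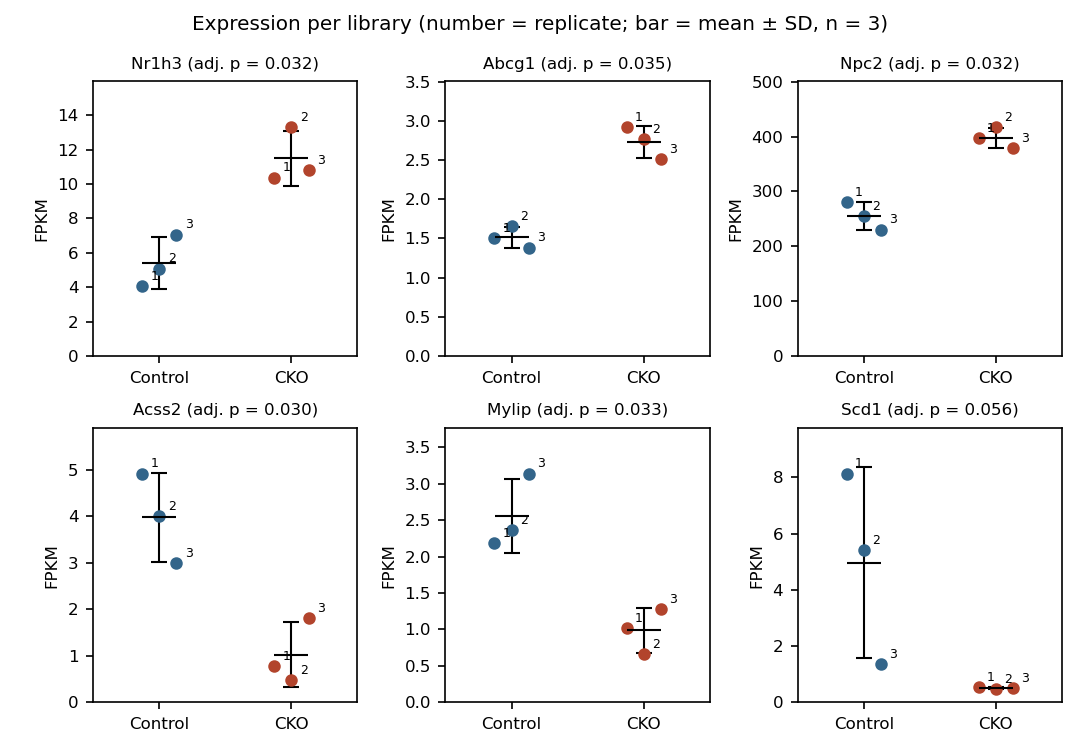
FPKM of 6 genes in each library, Control in blue and CKO in red. Points are libraries numbered by replicate, bars are the mean ± SD of 3 libraries, and each axis starts at 0; the groups do not overlap in any of the 6 panels, and Scd1 in Control 3 (1.37 FPKM) sits closest to the CKO points.

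Genes that move or store cholesterol inside the cell included 1 that rose, Npc2, and 4 that did not pass the test. Npc2, a soluble lysosomal protein that hands cholesterol to Npc1, had the highest level of the 43 genes in every library but Control 2, where Lpl was higher. It was at 396.6, 417.1 and 379.4 FPKM in CKO and at 280.4, 255.2 and 230.5 FPKM in Control. All CKO libraries exceeded all controls, by 1.56-fold in the means (log2 fold change 0.64 ± 0.13 SE, adjusted p = 0.0322). The adjusted p was 0.135, 0.159, 0.114 and 0.0596 without CKO 1, CKO 2, Control 2 and CKO 3, and 0.0511 with no filter, at log2 fold changes of 0.57 to 0.71 over the omissions. Npc1, the membrane partner of Npc2, was at 61.8, 61.2 and 75.2 FPKM in CKO and at 35.4, 46.3 and 94.2 FPKM in Control. The Npc1 controls spread widely around the CKO values, with Control 3 the highest of all 6 (adjusted p = 0.606). Without Control 3 the log2 fold change of Npc1 was 0.69 with an adjusted p of 0.039, and without Control 1 it was −0.008.

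Ch25h makes 25-hydroxycholesterol, an oxysterol that blocks SREBP processing and can activate LXR, and it is known as a gene of the LPS and interferon response. Ch25h was at 30.8, 36.8 and 24.8 FPKM in CKO and at 98.5, 59.9 and 7.53 FPKM in Control. The 2 highest values and the lowest value of the 6 were all controls, so the group difference was not detectable (log2 fold change −0.25, 95% confidence interval −2.17 to 1.68, adjusted p = 0.869). It depended on which control was used: without Control 3 the log2 fold change was −1.31 with an adjusted p of 0.018, and without Control 1 it was 0.46. The B cell and large peritoneal macrophage markers were likewise lowest among the controls in Control 3, and their part in the Ch25h values was not tested.

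Soat1, which esterifies cholesterol for storage in droplets, was at 25.8–31.1 FPKM in CKO and 20.1–33.1 FPKM in Control (adjusted p = 0.59). Stard4, a cytosolic sterol carrier, was at 3.06–4.76 and 2.94–6.12 FPKM (adjusted p = 0.659). Both CKO ranges lay wholly within the control range.

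**Figure D3:**
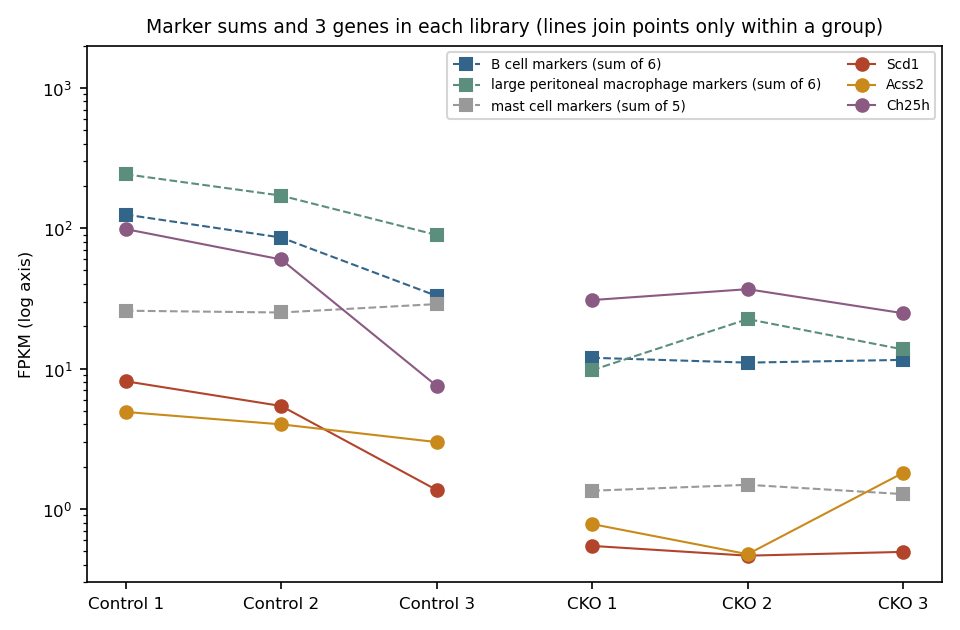
Summed FPKM of B cell, large peritoneal macrophage and mast cell markers (squares, dashed lines) and FPKM of Scd1, Acss2 and Ch25h (circles) in each library, on a log axis. Scd1, Acss2 and Ch25h were all lowest among the controls in Control 3, as were the B cell and large peritoneal macrophage sums, while the mast cell sum was 25.1–28.8 FPKM in all 3 controls.

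Among the fatty acid synthesis genes, 1 of 8 tested fell, none rose, and 4 had groups that did not overlap, all lower in CKO. Over all genes tested, 4.74% were called lower and 23.0% were apart and lower. The median log2 fold change of the 8 was −0.34. Acss2, which turns acetate into acetyl-CoA in the cytosol, was at 0.781, 0.477 and 1.81 FPKM in CKO and at 4.91, 4.01 and 2.996 FPKM in Control, from 57 to 549 fragments a library. CKO 3 was the nearest to the controls but still below all of them. Acss2 had a 3.88-fold lower mean in CKO (log2 fold change −1.33 ± 0.26 SE, adjusted p = 0.0304). Its adjusted p was 0.122, 0.123 and 0.133 without CKO 1, CKO 2 and Control 2 and 0.0626 with no filter, at log2 fold changes of −1.60 to −1.13 over the omissions.

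Scd1, the desaturase that makes oleate and a target of both SREBP-1 and LXR, had the widest gap between the group means. It was at 0.546, 0.465 and 0.495 FPKM in CKO and at 8.12, 5.42 and 1.37 FPKM in Control. The CKO libraries were alike and the controls spread over a wide range, with Control 3 nearest to CKO. The mean was 9.90-fold lower in CKO, but Scd1 missed the threshold (log2 fold change −1.78 ± 0.45 SE, adjusted p = 0.0559). The adjusted p was 0.0387 with the replicates paired by number, 0.0362 with a pseudocount of 0.1 and 0.000725 without Control 3. It was 0.0715 with voom on recovered fragments, 0.076 after scaling by the median of ratios, 0.0998 with no filter, and 0.17, 0.192, 0.112, 0.0691 and 0.196 without CKO 1, CKO 2, CKO 3, Control 1 and Control 2. Its close copy Scd2 was at 1.17–1.59 FPKM in CKO and 1.82–2.25 FPKM in Control (log2 fold change −0.35, adjusted p = 0.15). How reads shared by Scd1 and Scd2 were assigned is not given in the sources used here, so the division between the 2 genes is uncertain.

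The enzymes that build the fatty acid chain showed smaller differences. Fasn, the fatty acid synthase, was at 2.24, 1.96 and 1.78 FPKM in CKO and at 4.80, 3.06 and 2.49 FPKM in Control. The Fasn groups lay apart, with Control 1 well above the rest (log2 fold change −0.54 ± 0.20 SE, adjusted p = 0.137, and 0.0461 without Control 3). Acaca, which makes malonyl-CoA, was at 1.72–2.09 and 1.84–3.96 FPKM, and Acly, which releases acetyl-CoA from citrate, at 19.7–20.4 and 17.9–30.4 FPKM. Both overlapped (adjusted p = 0.337 and 0.49), and in both Control 1 was the highest library.

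Acss2, Scd1, Fasn, Acaca and Acly were all highest in Control 1 and lowest among the controls in Control 3, as were the summed B cell and large peritoneal macrophage markers. This was the order in 5 of the 8 tested genes and in 15.7% of all tested genes above 0 in every library. Scd2 did not share it, with 2.25, 1.82 and 2.24 FPKM in Control 1, 2 and 3. The summed mast cell markers were lower in CKO too, but highest in Control 3. The part of any of these cells in the lower fatty acid synthesis values was not tested.

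Genes of elongation and of polyunsaturated fatty acids did not follow that order. Elovl5, an elongase, was at 5.26–9.27 FPKM in CKO and 6.36–6.79 FPKM in Control (adjusted p = 0.646), and the desaturase Fads1 at 3.49–5.36 and 3.06–6.67 FPKM (adjusted p = 0.914). The elongase Elovl6 was at 0.172, 0.223 and 0.172 FPKM in CKO and at 0.0851, 0.0863 and 0.111 FPKM in Control, on 20 to 56 fragments a library. The desaturase Fads2 was at 0.491–0.530 and 0.177–0.675 FPKM, on 20 to 71 fragments. Elovl6 and Fads2 were below the filter and were not tested, and Elovl6 lay higher in all CKO libraries.

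None of the 16 sterol synthesis genes passed the test, and 1 of them, Dhcr7, had groups that did not overlap, beside 2.57% and 4.74% of all tested genes called higher and lower and 11.1% and 23.0% apart and higher or lower. In 13 of the 16 the log2 fold change was below 0, with a median of −0.15 beside −0.11 over all genes, and −0.04 after scaling by the median of ratios. The adjusted p ranged from 0.0833 to 0.937, and 1 gene had an unadjusted p under 0.05. Without Control 3 the median was −0.34 beside −0.06 over all genes, and 2 of the 16, Hsd17b7 and Sqle, passed, where 1333 of 9006 genes passed in that fit. Both groups expressed the pathway from its first steps to its end, at summed levels of 179.3, 149.5 and 173.9 FPKM in CKO and 201.1, 216.5 and 145.7 FPKM in Control. The highest and the lowest sum were both controls.

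The early steps build isoprenoids from acetyl-CoA. Hmgcs1, the synthase at the entry, with the exact match shown above, was at 29.2, 24.8 and 26.5 FPKM in CKO and at 33.8, 43.02 and 20.5 FPKM in Control. The CKO values lay within the controls (log2 fold change −0.21, 95% confidence interval −0.81 to 0.39, adjusted p = 0.628). Idi1, which isomerises the isoprene unit, was at 5.92, 4.60 and 5.93 FPKM in CKO and at 6.78, 12.3 and 3.69 FPKM in Control (adjusted p = 0.624). Idi1 had its highest value in Control 2 and its lowest in Control 3. The mevalonate kinase Mvk (1.97–2.24 against 2.21–2.57 FPKM), the phosphomevalonate kinase Pmvk (1.78–2.50 against 2.16–3.46 FPKM), the decarboxylase Mvd (6.86–9.59 against 9.29–11.4 FPKM) and the farnesyl diphosphate synthase Fdps (25.7–34.8 against 27.8–31.1 FPKM) overlapped as well, with adjusted p from 0.244 for Mvd to 0.937 for Fdps.

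The middle steps make and close squalene. Sqle, the squalene epoxidase and a controlled step of the pathway, was at 11.1, 9.58 and 12.2 FPKM in CKO and at 17.0, 16.5 and 9.12 FPKM in Control. Control 1 and Control 2 were above all CKO libraries and Control 3 below them (log2 fold change −0.31 ± 0.24 SE, adjusted p = 0.435, and −0.58 with 0.0377 without Control 3). Fdft1, the squalene synthase (3.24–4.43 against 3.45–5.60 FPKM), and Lss, which closes squalene epoxide into lanosterol (1.63–2.09 against 1.32–2.95 FPKM), overlapped between groups, with adjusted p = 0.451 and 0.694.

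The late steps turn lanosterol into cholesterol. Hsd17b7, a sterol ketone reductase, was at 2.26, 2.14 and 2.35 FPKM in CKO and at 4.80, 4.25 and 1.80 FPKM in Control. It had the largest negative log2 fold change of the 16 in the 6 libraries together, and again Control 3 was below CKO (−0.44 ± 0.27 SE, adjusted p = 0.324, and −0.76 with 0.0106 without Control 3). The demethylases Cyp51 (12.2–16.8 against 10.8–19.2 FPKM) and Msmo1 (27.2–32.6 against 27.1–42.2 FPKM), the dehydrogenase Nsdhl (3.77–4.54 against 4.32–5.07 FPKM), the desaturase Sc5d (7.30–10.2 against 6.62–10.9 FPKM) and the isomerase Ebp (13.5–15.7 against 10.9–14.4 FPKM) overlapped, with adjusted p from 0.358 for Ebp to 0.879 for Sc5d.

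Dhcr7, which removes the last extra double bond of the pathway, was 1 of the 3 sterol genes with a log2 fold change above 0. It was at 0.897, 1.03 and 1.22 FPKM in CKO and at 0.595, 0.490 and 0.558 FPKM in Control, on 86 to 226 fragments a library. All CKO libraries were higher, by 1.92-fold in the means (log2 fold change 0.40 ± 0.12 SE, adjusted p = 0.0833). Its adjusted p was 0.0487 after scaling by the median of ratios, 0.11 with the replicate block, 0.0667 with no filter, 0.0584 with voom, 0.0838 with a pseudocount of 0.1 and 0.0798 to 0.277 in the omissions in which it was tested.

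**Figure D4:**
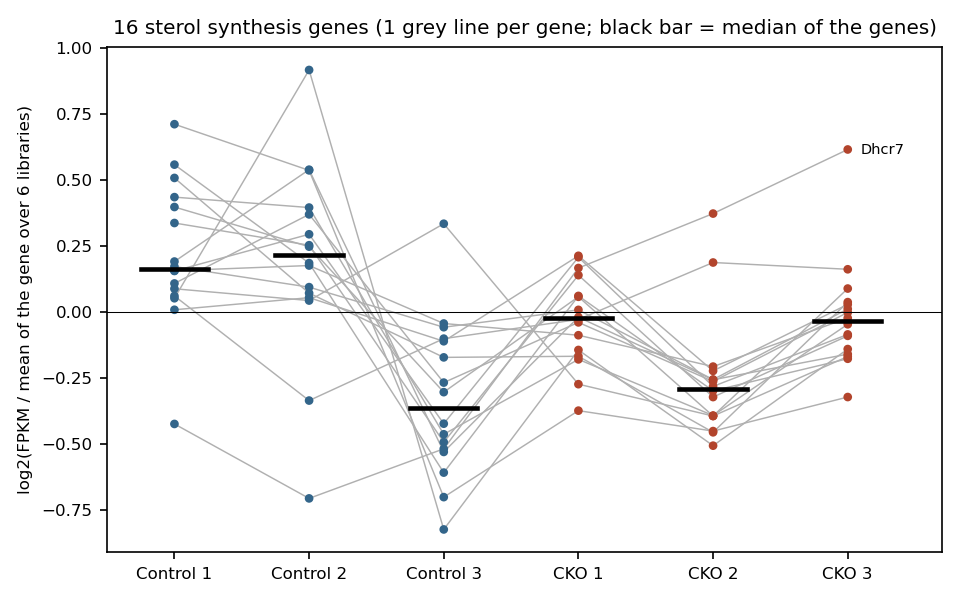
Level of each of the 16 sterol synthesis genes in each library as log2 of FPKM over the mean of that gene in the 6 libraries. Grey lines join 1 gene across libraries and black bars are medians over the genes: 0.16, 0.21 and −0.36 in Control 1, 2 and 3, and −0.03, −0.29 and −0.04 in CKO 1, 2 and 3, so the CKO medians lie between those of the controls.

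The spread of the pathway was wider among the controls than among the CKO libraries. The median coefficient of variation of the 16 genes was 13.4% in CKO and 24.1% in Control, beside 11.8% and 19.1% over all genes tested. Control 3 was the lowest control for 13 of the 16 genes, where it was the lowest control for 26.6% of all tested genes above 0 in every library, and it was the lowest of all 6 libraries for 8 of the 16, beside 1197 of those 9017 genes. In 8 of the 16 genes, the 3 CKO values lay wholly inside the control range, beside 2097 of the 9017. This pattern was singled out after the values were seen and was given no test.

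The 5 genes of the SREBP system showed no call. Srebf2, whose product drives cholesterol synthesis, was at 35.7, 28.6 and 36.8 FPKM in CKO and at 38.2, 33.5 and 38.4 FPKM in Control (log2 fold change −0.12, 95% confidence interval −0.46 to 0.21, adjusted p = 0.606). Srebf1, whose product favours fatty acid synthesis and which LXR also switches on, was at 8.33, 6.88 and 8.68 FPKM in CKO and at 9.94, 9.42 and 14.0 FPKM in Control. All Srebf1 controls were above all CKO libraries, with Control 3 the highest (−0.42 ± 0.18 SE, adjusted p = 0.177). Scap, the escort, was at 5.67, 6.31 and 6.33 FPKM in CKO and at 4.77, 3.89 and 3.92 FPKM in Control. The Scap groups lay apart in the other direction, 1.46-fold in the means, without passing (0.46 ± 0.13 SE, adjusted p = 0.0733).

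The retention proteins did not separate the groups. Insig1, itself an SREBP target, was at 31.8–40.1 FPKM in CKO and 25.9–42.3 FPKM in Control (adjusted p = 0.971), with its lowest value in Control 3. Insig2 was at 2.56–2.70 and 2.31–3.12 FPKM (adjusted p = 0.914). Their log2 fold changes were 0.01 and −0.03.

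The genes of lipid uptake were Lpl, which frees fatty acids from lipoproteins at the cell surface, and Pparg, a nuclear receptor of fatty acids that promotes their uptake and storage. Lpl was at 169.8, 339.9 and 291.5 FPKM in CKO and at 273.5, 266.2 and 112.5 FPKM in Control. The Lpl ranges overlapped over most of their length (log2 fold change 0.34 ± 0.40 SE, adjusted p = 0.604). Pparg was at 2.01, 2.34 and 1.70 FPKM in CKO and at 0.284, 0.858 and 1.32 FPKM in Control, on 38 to 335 fragments. Pparg was higher in all CKO libraries, 2.46-fold in the means, and missed the threshold (0.77 ± 0.22 SE, adjusted p = 0.0813, and 0.0211 without Control 3).

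Other genes of the same pathways, listed by function, gave 4 higher calls and 1 lower. The genes tested were 9 sterol, 5 LXR, 15 uptake and storage, 10 fatty acid oxidation and 3 oxysterol genes. Higher calls made up 20% of the LXR, 13.3% of the uptake and storage and 33.3% of the oxysterol genes. The lower call made up 6.67% of the uptake and storage genes. Over all genes tested, 2.57% were higher and 4.74% lower. Each list share rests on 1 or 2 calls. Of the higher calls, Mgll and Cyp27a1 entered the test only through the CKO mean. Of 5 further LXR targets tested, Apoe, the lipoprotein that accepts exported cholesterol, rose, at 886.8, 1016.2 and 800.8 FPKM in CKO against 410.4, 306.7 and 316.2 FPKM in Control (log2 fold change 1.39 ± 0.17 SE, adjusted p = 0.00981). Arl4c, another LXR target, was lower in all CKO libraries without passing (2.32–4.67 against 4.87–8.74 FPKM, −0.72 ± 0.26 SE, adjusted p = 0.137). The other 3 tested, Lpcat3, Smpdl3a and Pltp, had groups that overlapped, and the median log2 fold change of the 5 was −0.02.

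Of 3 oxysterol enzymes tested, Cyp27a1, which makes 27-hydroxycholesterol, rose from 0.359–0.484 FPKM in Control to 1.67–2.09 FPKM in CKO (log2 fold change 0.99 ± 0.12 SE, adjusted p = 0.0109). Cyp7b1, which breaks oxysterols down, was at 0.137, 0.311 and 0.190 FPKM in CKO and at 3.04, 2.48 and 0.0567 FPKM in Control, on 5 to 292 fragments a library. It entered the test only through the Control mean, so the filter itself favoured a difference. Like Ch25h, Cyp7b1 was high in Control 1 and Control 2 and lowest of all in Control 3 (−1.02 ± 0.47 SE, adjusted p = 0.207). Without Control 3 the log2 fold change of Cyp7b1 was −1.63 with an adjusted p of 0.00119, and without Control 1 it was −0.66.

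Of 15 lipid uptake and storage genes tested, 2 rose and 1 fell. Fabp5, a fatty acid carrier, rose from 523.4–701.7 FPKM in Control to 1340.4–1589.8 FPKM in CKO (log2 fold change 1.26 ± 0.15 SE, adjusted p = 0.0109). Mgll, which splits monoglycerides, rose from 0.116–0.233 to 1.59–2.40 FPKM (1.35 ± 0.14 SE, adjusted p = 0.00651), on at least 24 fragments a library. Ppard, a fatty acid-sensing nuclear receptor, fell from 19.1–31.1 to 4.89–8.50 FPKM (−1.65 ± 0.24 SE, adjusted p = 0.0147). Without Control 2 all 5 of these calls were lost, with adjusted p from 0.0702 for Fabp5 to 0.0807 for Apoe, Ppard and Cyp27a1. Without CKO 1 the adjusted p was 0.0569 for Apoe, 0.0557 for Cyp27a1, 0.0592 for Fabp5 and 0.0678 for Ppard, and without CKO 2 it was 0.0521 for Cyp27a1, 0.0519 for Fabp5 and 0.0584 for Ppard. Over the 6 omissions the log2 fold changes were 1.30 to 1.52 for Apoe, 0.92 to 1.03 for Cyp27a1, 1.15 to 1.36 for Fabp5, 1.27 to 1.46 for Mgll and −1.80 to −1.45 for Ppard. Of 9 further sterol genes tested, none passed, and the widest differences were 0.63 for the sterol reductase Tm7sf2 (adjusted p = 0.0768) and −0.48 for Lbr, which reduces the same bond (adjusted p = 0.0846, and 0.0479 without Control 1). Tm7sf2 entered the test only through the CKO mean, on 6 to 89 fragments a library.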

How the data were processed

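Gene expression was taken from 1 deposited table of 15415 genes and 6 libraries, mapped per the labels to the mouse genome build mm9. The aligner, the counting, its use of strand and the annotation are not given in the sources used here. The per-library values, headed only as expression by the authors, were taken as FPKM from the values themselves, since a factor for each gene and library depth turned them into whole fragments. The same table holds deposited group means of normalised counts (a signal scaled by DESeq2 size factors, per the file headers), which were used to recover whole fragment counts. All of the values came out whole within 0.01. The authors' own fold change (a ratio), its log2 value, p-value and q-value were not used. No per-sample column was left unused (0).

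Groups followed the sample titles. log2(FPKM + 1) was fitted with limma 3.58.1 in R 4.3.3 (eBayes with trend) over the 9030 genes with a mean of at least 1 FPKM in one group, with Benjamini-Hochberg adjustment and a threshold of 0.05. Fold changes on this scale understate changes of low genes. A two-sided exact permutation test of 3 against 3 libraries cannot go below p = 0.1. Depth was 36170767–42217558 fragments a library, and intervals cover the spread between libraries. The fit was also run on simulated reads with larger changes than most called here, the same spread for all genes and no outlying library. That run does not show how the fit does on the smaller changes reported. Same-numbered CKO and Control libraries deviated together (correlations of 0.109, 0.11 and 0.304), although CKO 2 also did so with Control 1 (0.291). The deviations were taken from the mean of 3 libraries in each group, so they are not independent of each other. The check therefore cannot show that the numbers pair the libraries. A replicate block was tried in a separate fit, with no pairing established.

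The genes and lists were chosen with earlier results of these data known. Named genes were all 43 and, of the other pathway lists, those past the threshold and the 2 of each list with the largest absolute log2 fold change. Alternatives were no filter, a filter of 5 FPKM, a pseudocount of 0.1, scaling by the median of ratios, the replicate block, limma voom on recovered fragments and leaving out each library. Promoter windows came from RefSeq on GRCm38.p6, not from mm9.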

Additional observations from a re-analysis of the deposited data

How the results depend on the processing

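Of the 43 genes, those that passed were 5 in the fit reported above, the same 5 with voom on recovered fragments, 6 with a pseudocount of 0.1 (adding Scd1), 6 after scaling by the median of ratios (adding Dhcr7), 2 of 23 tested with a filter of 5 FPKM (Npc2 and Nr1h3) and 0 of 43 with no filter, where 12 still had an unadjusted p under 0.05. By list, no filter left 0 fatty acid synthesis, 0 LXR and efflux and 0 cholesterol handling genes. The filter of 5 FPKM left 0 fatty acid synthesis genes and 1 LXR and efflux gene, where fewer genes were tested, with 436 calls over all genes in place of 660. A pseudocount of 0.1 gave 2 fatty acid synthesis genes, and the median-of-ratios scaling gave 1 sterol synthesis gene. That scaling turned the sign of 4 uncalled genes, to 0.0184 for Cyp51, 0.0828 for Insig2, 0.0729 for Sc5d and 0.0189 for Srebf2 on the log2 scale.

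With the replicate block, 855 genes passed over all genes and 2 fatty acid synthesis genes, adding Scd1 (adjusted p = 0.0387). The fit with the block changed no other call on the 43 genes, and Timd4 passed in it (adjusted p = 0.0436). The replicate numbers were not shown to pair the libraries.

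Leaving out 1 library gave 8 to 1333 calls over all genes, 0 to 2 in sterol synthesis, 0 in the SREBP system, 0 to 3 in fatty acid synthesis, 0 to 3 in LXR and efflux, 0 to 3 in cholesterol handling and 0 to 1 in lipid uptake. No call on the 43 genes was left without CKO 1, without CKO 2 or without Control 2 (10, 9 and 11 with an unadjusted p under 0.05), and 12 were made without Control 3. The sign of 14 uncalled genes turned in at least 1 omission, with log2 fold changes from −1.31 to 0.46 for Ch25h, −0.36 to 0.0248 for Cyp51, −0.00202 to 0.35 for Elovl5, −0.16 to 0.30 for Fads1, −0.0783 to 0.13 for Fdps, −0.50 to 0.0219 for Hmgcs1, −0.66 to 0.0947 for Idi1, −0.21 to 0.14 for Insig1, −0.10 to 0.0550 for Insig2, −0.0739 to 0.64 for Lpl, −0.35 to 0.0360 for Lss, −0.00761 to 0.69 for Npc1, −0.13 to 0.25 for Nr1h2 and −0.25 to 0.0706 for Sc5d. Where a call came or went, the cause was not tested. Each sterol gene had at least 86 fragments in every library.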

Other observations

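Fatty acid oxidation, the route that uses up what Fasn and Scd1 make, held no call among its 10 listed genes, all tested, with a median log2 fold change of −0.11, as over all genes. Cpt1a, which admits fatty acids to mitochondria, was at 27.6, 28.4 and 33.1 FPKM in CKO and at 19.5, 19.3 and 26.7 FPKM in Control. All CKO libraries were above all controls, without passing (log2 fold change 0.44 ± 0.16 SE, adjusted p = 0.141). Cpt1a passed after scaling by the median of ratios (0.58, adjusted p = 0.0445) and without Control 3 (0.58, adjusted p = 0.0307). Hadhb, a subunit of the mitochondrial trifunctional protein, was at 3.06–3.86 FPKM in CKO and 3.75–5.87 FPKM in Control (−0.39 ± 0.17 SE, adjusted p = 0.194, and 0.0453 without Control 3). The other 8 genes had groups that overlapped.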
